A study of Homo sapiens with 6 samples.

Results

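The ATP-binding cassette (ABC) transporter genes were examined in SW480 cells induced to make POU5F1B or green fluorescent protein (GFP). They were taken as the protein-coding rows whose symbol is ABC, a letter from A to G and a number. By this rule 45 of the 63677 rows of the count tables were members, 12 in subfamily A, 9 in B, 11 in C, 4 in D, 1 in E, 3 in F and 5 in G. A further 17 rows with an ABC symbol were left out, being pseudogenes, antisense transcripts and ABCC13.

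SW480 is an established line from a human colorectal adenocarcinoma. POU5F1B is a retrogene copy of POU5F1, the gene of the pluripotency factor OCT4, and GFP served as the control protein. Polyadenylated RNA was sequenced from 3 GFP and 3 POU5F1B libraries to find the transcripts that respond to forced POU5F1B expression. In both groups the transgene came from a transduced vector with a doxycycline-inducible promoter, and both groups received 1 µg/mL doxycycline for 72 h before harvest, so that drug and transduction are shared by the controls. Nothing in the labels says that the 3 libraries of a group came from separate transductions or cultures. The p-values below therefore measure only the spread between these libraries, which may be technical.

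ABC proteins bind and hydrolyse ATP in a pair of conserved nucleotide-binding domains and, in most members, use this energy to move a substrate across a membrane. P-glycoprotein, encoded by ABCB1, together with the ABCC pumps and ABCG2, exports drugs and their conjugates, and in the gut these pumps limit uptake of foreign compounds. Other members move cholesterol, phospholipids, bile constituents, haem precursors, fatty acids or vitamin B12, and the E and F proteins have no membrane domain and act on ribosomes.

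Each library held between 10767947 and 12787637 counts, and levels are given as CPM, the counts scaled to a common library size with TMM factors. The labels were checked first on the overexpressed gene, which had 6, 5 and 1 counts in GFP replicates 1 to 3 and 15027, 11393 and 1458 in POU5F1B replicates 1 to 3. POU5F1B replicate 3 thus held the transgene at 121 CPM, against 1180 and 1054 CPM in its group. Libraries of replicate 3 stood apart from the rest. By a chi-square statistic per degree of freedom over genes, GFP replicate 3 differed from the other GFP libraries by 78.7 and 89.5, where these differed from each other by 4.21. For POU5F1B the corresponding values were 17.5 and 20.9 against 5.38. Among 10 colon epithelium markers, 7 had at least 10 counts in every library, KRT8 and KRT18 being abundant and CDX1, CDH17 and GPA33 absent from some libraries. The main comparisons below are therefore given with all 6 libraries and with replicates 1 and 2 only.

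Of the 45 ABC genes, 30 had enough counts to be tested. The other 15 are listed here by their counts. No read was counted in any library for ABCA6 and ABCA8, relatives of the lipid transporters, ABCB5, a P-glycoprotein relative, ABCB11, the bile salt export pump, ABCD2, a peroxisomal fatty acid transporter, or ABCG8, which pairs with ABCG5 in sterol export. A count of 0 in these libraries allows a level of up to 0.278 CPM (3 counts, counting error only). ABCA9, ABCA10, ABCA12, ABCA13 and ABCG5 had at most 3 counts in any library. ABCC9, the sulfonylurea receptor of heart and vessel potassium channels, had 5 counts in GFP replicate 1 and 0 in the other libraries. ABCG4 and ABCC11 ranged from 1 to 5 and from 1 to 6 counts. ABCC2, an apical pump for bilirubin and drug conjugates, had 5, 5 and 30 counts in GFP replicates 1 to 3 and 4, 1 and 9 in POU5F1B replicates 1 to 3, its highest count in either group falling in replicate 3. A library held reads from 33 to 36 of the 45 genes.

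Levels between genes were compared per length, as RPKM, the CPM divided by the kilobases of the canonical transcript. The 4 proteins without membrane domains were highest, from a mean of 31.5 RPKM for ABCF3 to 44.5 RPKM for ABCE1, the ribosome recycling factor. The 6 libraries ranged from 26.8 to 91.4 RPKM for ABCE1 and overlapped those of ABCF1, ABCF2 and ABCF3, so that their order does not exceed the spread. Among efflux pumps ABCC1, the multidrug resistance-associated pump for glutathione conjugates, had the highest mean at 19.0 ± 2.20 RPKM (SD, n = 6), close to 18.2 ± 3.05 RPKM for ABCC3 and within its spread. ABCG2 and ABCC12 lay far below, at 0.561 and 0.134 RPKM. ABCB1 averaged 9.50 RPKM with an SD of 17.3, since its libraries ran from 0.196 to 43.6 RPKM.

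In the other classes the highest means were 18.3 RPKM for ABCD3, a peroxisomal importer of branched fatty acids and bile acid precursors, 15.0 RPKM for ABCD4, which passes vitamin B12 out of lysosomes, and 8.47 RPKM for ABCA2, a lipid transporter of endosomes and lysosomes. Part of this order depends on the length used. Divided by the length of all annotated exons, ABCD4 averaged 5.09 RPKM, below ABCB10 of its class at 6.85 RPKM. By that length ABCF2 lay above ABCE1, at 34.7 and 27.7 RPKM. ABCF3 was then at 15.0 RPKM, close to ABCC1 at 14.2 RPKM. By the canonical length ABCB4, the phosphatidylcholine floppase of the bile canaliculus, averaged 1.60 RPKM and was the tested member of its class. ABCC6, the liver protein behind ATP release and mineralization control, averaged 0.650 RPKM. Of its 50-nt transcript windows 17.3% also occur in the pseudogenes ABCC6P1 and ABCC6P2, and 11.7% of those of ABCE1 occur in 3 other annotated genes, so uniquely mapped reads may undercount both.

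**Figure D1:**
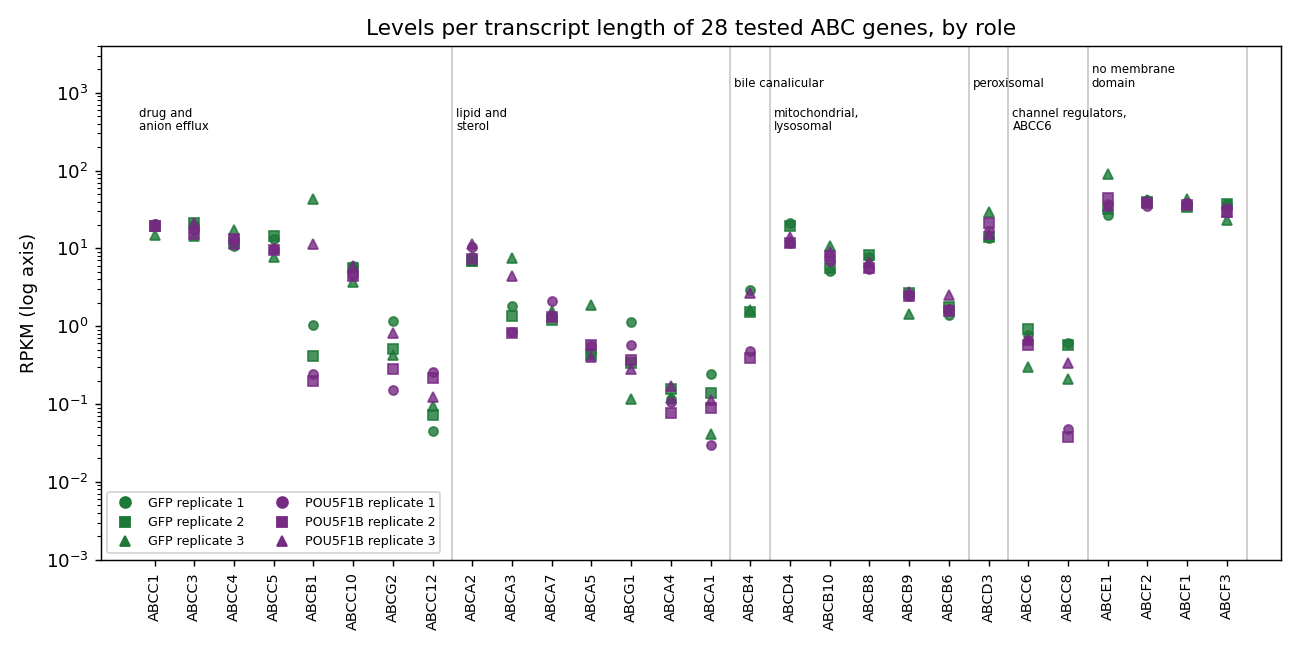
RPKM on a log axis for 28 of the 30 tested ABC genes, grouped by role and ordered by mean within a role; each point is 1 library, green for GFP and purple for POU5F1B, with the shape giving the replicate. ABCB1 spans 0.196 to 43.6 RPKM, with both replicate 3 libraries at the top, while the 4 genes without membrane domains stay above 23.0 RPKM in every library.

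With all 6 libraries, no ABC gene passed the threshold, an adjusted p under 0.05 and a fold change above 2 in limma's moderated test on voom values, and neither did any of the 14286 genes tested (0.00%). The overexpressed POU5F1B did not pass either, at 10.7 ± 2.78 on the log2 scale (SE; adjusted p = 0.252, limma voom). With all 6 libraries the test thus missed even this change, and the lack of calls does not show a lack of change. The smallest adjusted p of an ABC gene by limma voom was 0.317, for ABCC12. At an unadjusted p under 0.05, 1 ABC gene was higher in POU5F1B cells, ABCC12, where 6.07% of all tested genes were, and 1 was lower, ABCC8, where 5.82% were. Libraries of the 2 groups did not overlap for 1 of the 30 genes in the upward direction (background 10.2%) and for 0 in the downward direction (background 9.21%). The log2 fold changes were positive for 10 and negative for 20 of the 30 genes, with a median of -0.06 beside -0.02 over all tested genes. In 23 of the 30 the estimate was within 0.5 of 0. In RNA from whole cultures, a smaller share of cells with a transcript and less of it in each cell cannot be told apart.

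Replicates 1 and 2 alone gave another count. ABCC12 passed the threshold upward, 1 of 30 against a background of 3.21%, and 5 genes passed it downward, ABCA1, ABCB1, ABCB4, ABCC8 and ABCG2, against a background of 5.15%. Without the fold limit, 15 of the 30 had an adjusted p under 0.05 in limma voom, 4 higher (background 14.1%) and 11 lower (background 15.5%). The median over the 30 genes was -0.30 in these libraries, beside -0.0050 over all tested genes. With all 6 libraries weighted by quality, where GFP replicate 3 received a weight of 0.111 and the others 0.575 to 2.79, ABCC12 passed upward (background 3.14%) and ABCA1, ABCB4 and ABCC8 downward (background 4.40%). Some cell type markers differed between the groups as well. Of the marker lists, the fibroblast list alone had sums that did not overlap between the groups. The 6 fibroblast markers summed to 20.2 to 143 CPM in GFP and 5.74 to 10.4 CPM in POU5F1B libraries, mostly from COL1A1, with COL3A1 at 0 in every library, and of the 7 tested colon epithelium markers EPCAM, CDH1 and VIL1 passed the threshold upward in replicates 1 and 2 (1.87, 2.33 and 1.16 on the log2 scale). The groups did not overlap over all 6 libraries for CDH1 (30.1 to 72.5 CPM in GFP, 98.1 to 164 CPM in POU5F1B, background 10.2%), but did for EPCAM and VIL1. Summed, the 10 colon markers ran from 6353 to 9551 CPM in GFP and from 7895 to 8909 CPM in POU5F1B libraries. The part of either marker list in the ABC differences was not tested. Immune markers summed to at most 1.60 CPM, with CD68 and MS4A1 at 0.

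**Figure D2:**
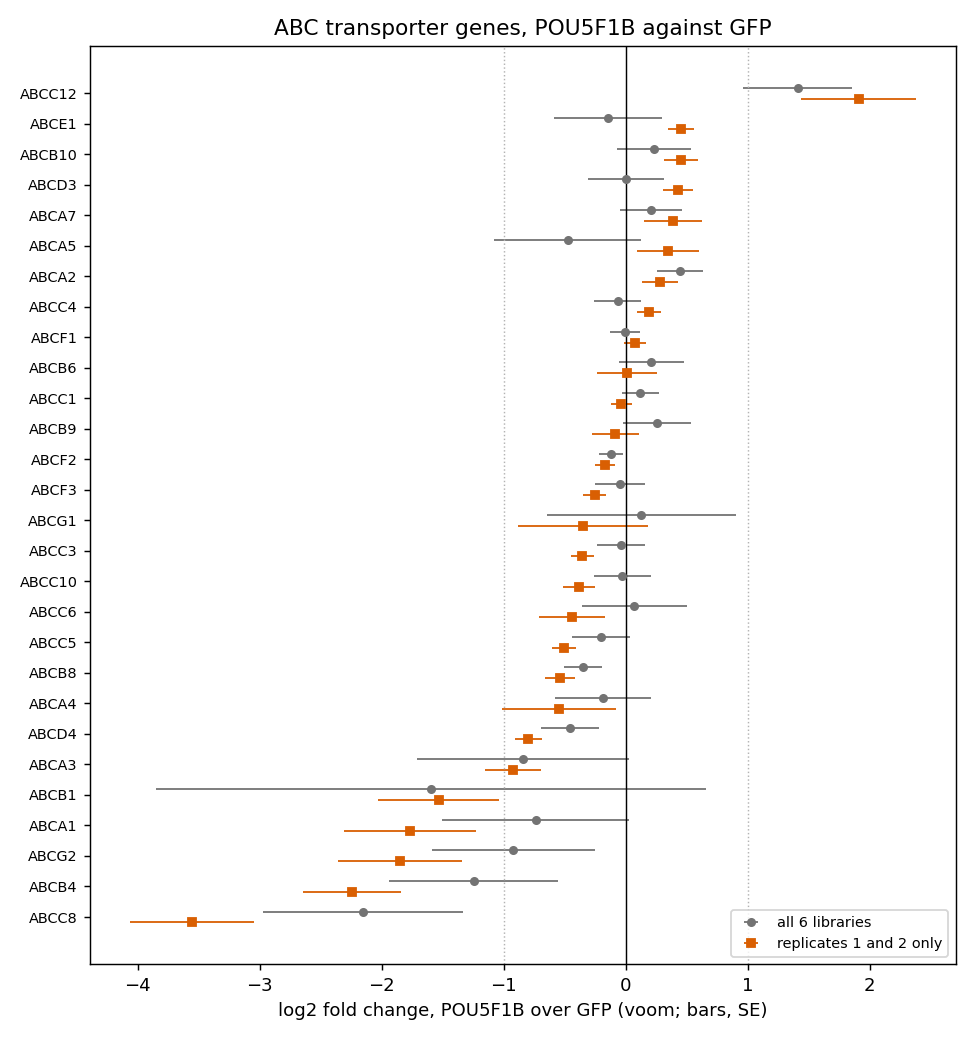
Log2 fold change of POU5F1B over GFP for 28 of the 30 tested ABC genes, ordered by the value in replicates 1 and 2, with bars of 1 SE; grey circles use all 6 libraries and orange squares replicates 1 and 2 only, and dotted lines mark a 2-fold change. ABCC8 lies lowest at -3.56 and ABCC12 highest at 1.91 in replicates 1 and 2, and the bar of ABCB1 in all 6 libraries is the widest.

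Of the drug and organic anion pumps, ABCB1 (ENSG00000085563, chromosome 7 from 87132333 to 87342639, GRCh37, minus strand) differed most between libraries. Its level was 5.47, 2.13 and 227 CPM in GFP replicates 1 to 3 and 1.26, 1.02 and 59.7 CPM in POU5F1B replicates 1 to 3. These rest on 65, 28 and 2618 counts in GFP and on 16, 11 and 719 counts in POU5F1B libraries. Replicate 3 was far above the other libraries in both groups, the groups overlapped, and within each replicate number the POU5F1B library was the lower one. Replicate numbers were not taken as pairs, so an order within them is description only. A fit with a replicate block, given as an alternative, put ABCB1 at -1.86 on the log2 scale (unadjusted p = 0.000381, adjusted p = 0.174, limma voom). The log2 fold change was -1.60 ± 2.25 over all 6 libraries (SE; adjusted p = 0.814, limma voom), and -1.53 ± 0.49 in replicates 1 and 2 (adjusted p = 0.0340, limma voom), with a log2 difference of -1.92 between the replicate 3 libraries. With quality weights the estimate was -0.74 (adjusted p = 0.625, limma voom), and without GFP replicate 3 it was 0.37, POU5F1B replicate 3 then being the single high library left.

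ABCB1 differed more between replicate 3 and the other libraries than between the groups. Its mean log2 CPM was 5.75 higher in the replicate 3 libraries than in the other 4, the 6th largest such difference of the 14286 tested genes, of which 0.931% were more than 4-fold higher there. Both replicate 3 libraries lay above the other 4 for 4 of 30 ABC genes, ABCA3, ABCB1 and ABCB10 among them, beside 13.8% of all tested genes. They lay below for 3 of 30, ABCF3 and ABCG1 among them, beside 11.0%. Genes around ABCB1 did not share the size of this difference. Among the other 11 tested genes within 1 Mb it ran from 0.08 to 1.09, and ADAM22 was the only other one with both replicate 3 libraries on top. DBF4 (57.1, 67.8 and 244 CPM in GFP; 56.8, 71.8 and 48.6 CPM in POU5F1B) and DMTF1 (35.8, 48.3 and 102 CPM; 25.6, 30.4 and 24.6 CPM) were high in GFP replicate 3 alone. What differs in the replicate 3 libraries cannot be told from the labels and was not tested.

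**Figure D3:**
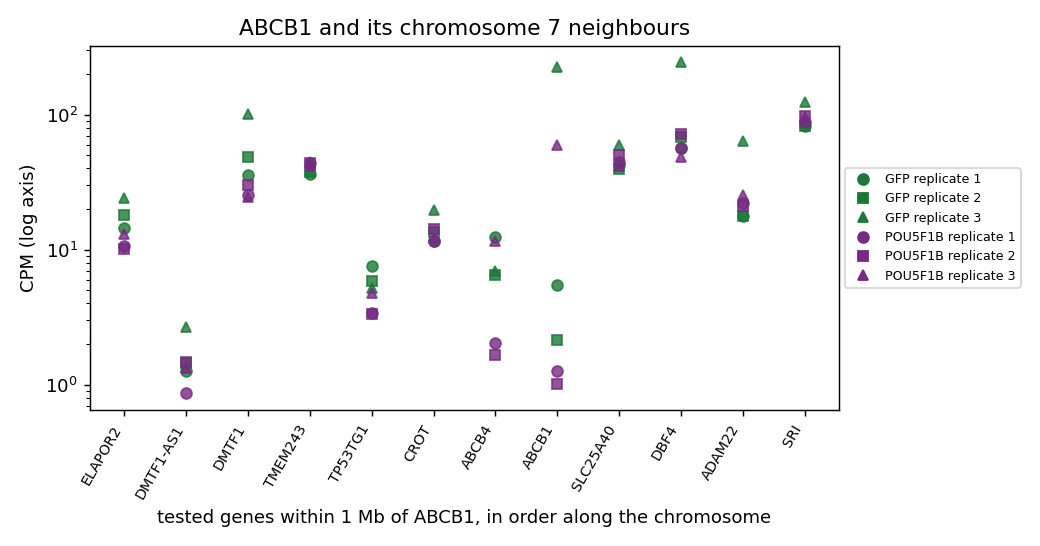
CPM on a log axis for the 12 tested genes within 1 Mb of ABCB1, in order along chromosome 7; each point is 1 library, with colour for the group and shape for the replicate. ABCB1 stands at 227 and 59.7 CPM in the replicate 3 libraries and at 5.47 CPM or less in the others, and no neighbour shows both triangles as far above its other points.

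ABCG2, the drug pump known as the breast cancer resistance protein, measured 4.88, 2.13 and 1.82 CPM in GFP replicates 1 to 3 and 0.628, 1.20 and 3.49 CPM in POU5F1B replicates 1 to 3. POU5F1B replicates 1 and 2 were the lowest libraries and replicate 3 the second highest of all 6, so the groups overlapped. ABCG2 had 58, 28 and 21 counts in GFP and 8, 13 and 42 counts in POU5F1B libraries, so its lowest values carry a large counting error. It fell by 1.85 on the log2 scale in replicates 1 and 2 (SE 0.51; adjusted p = 0.0166, limma voom), against -0.92 ± 0.67 over all 6 (adjusted p = 0.618, limma voom) and a difference of 0.88 between the replicate 3 libraries.

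ABCC12, a subfamily C member with no well established substrate, was the ABC gene whose groups did not overlap. It measured 0.336, 0.532 and 0.694 CPM in GFP and 1.88, 1.57 and 0.913 CPM in POU5F1B replicates 1 to 3, from 4, 7 and 8 against 24, 17 and 11 counts. All POU5F1B libraries were above all GFP libraries, with the smallest gap in replicate 3. The log2 fold change was 1.41 ± 0.45 over all 6 (adjusted p = 0.317, limma voom) and 1.91 ± 0.47 in replicates 1 and 2 (adjusted p = 0.00883, limma voom). At 4 to 24 counts a library, its CPM carry a large counting error. ABCC12 entered the test through its POU5F1B libraries, as its GFP libraries held 8 counts or fewer. That filter favours a higher POU5F1B level, so the separation of the groups and the upward calls are description only.

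The abundant pumps moved little. ABCC1 measured 134, 128 and 95.4 CPM in GFP and 133, 125 and 127 CPM in POU5F1B libraries, the GFP replicate 3 library being the lowest, with a log2 fold change of 0.12 ± 0.15 (adjusted p = 0.789, limma voom). ABCC3, which exports glucuronides and bile salts, ABCC4 and ABCC5, which export cyclic nucleotides among other anions, and ABCC10 had log2 fold changes from -0.21 to -0.03 over all 6 libraries. In replicates 1 and 2 ABCC5 was lower by 0.51, ABCC10 by 0.38 and ABCC3 by 0.36 (adjusted p = 0.00236, 0.0483 and 0.0128, limma voom), all under 2-fold, and each was higher in POU5F1B in the replicate 3 pair.

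**Figure D4:**
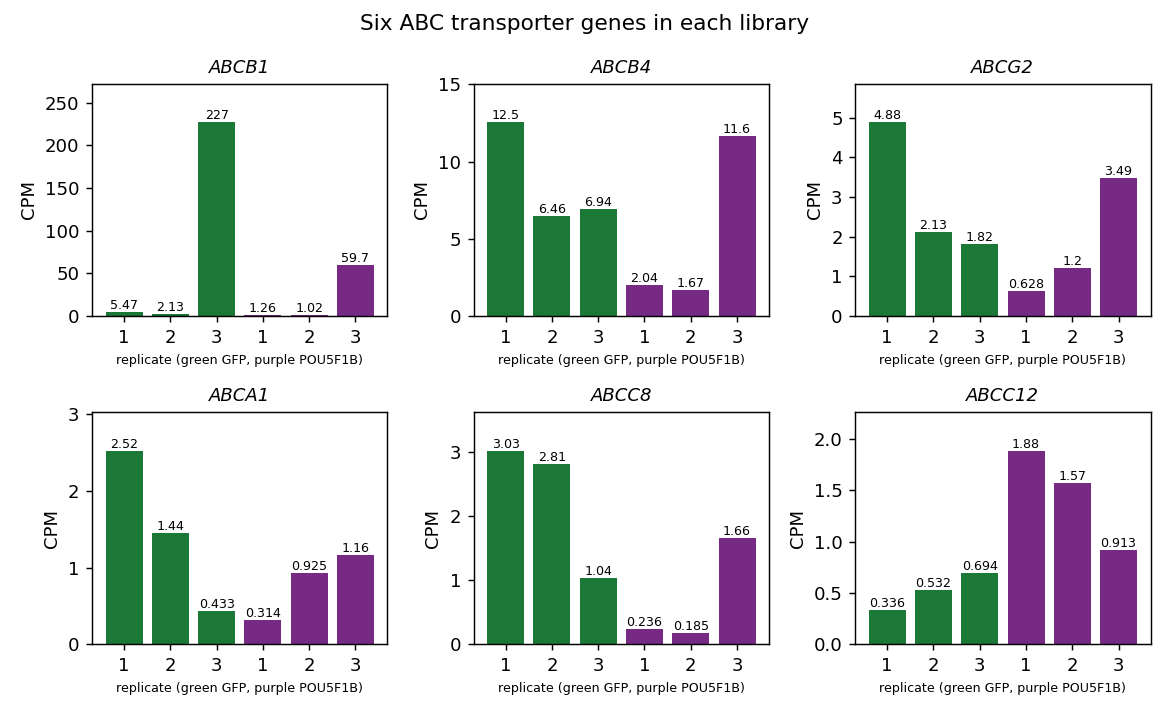
CPM of the 6 ABC genes that passed the threshold in replicates 1 and 2, 1 bar per library, green for GFP and purple for POU5F1B, each panel with its own axis from 0. In POU5F1B replicate 3 ABCB4, ABCG2, ABCA1 and ABCC8 stand above both other POU5F1B libraries, and ABCB1 reaches 227 and 59.7 CPM in the replicate 3 libraries only.

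ABCB4 is the neighbour and closest paralog of ABCB1 (chromosome 7 from 87031012 to 87109751, GRCh37, minus strand). Its level was 12.5, 6.46 and 6.94 CPM in GFP replicates 1 to 3 and 2.04, 1.67 and 11.6 CPM in POU5F1B replicates 1 to 3. POU5F1B replicates 1 and 2 were below every GFP library and POU5F1B replicate 3 was the second highest of all. The gene fell by 2.25 on the log2 scale in replicates 1 and 2 (SE 0.40; adjusted p = 0.00126, limma voom), while all 6 libraries gave -1.25 ± 0.69 (adjusted p = 0.521, limma voom) and the replicate 3 pair a difference of 0.73.

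Because ABCB1 and ABCB4 are counted from uniquely mapped reads, the sequence they share was read from GRCh37. They have 119 of their 50-nt transcript windows in common, 2.31% of those of ABCB1 and 2.80% of those of ABCB4. The longest identical run is 122 nt of coding sequence across exons 27 and 28 of both canonical transcripts, in the C-terminal nucleotide-binding domain, at chr7:87133656-87135224 in ABCB1 and chr7:87031509-87032462 in ABCB4 (both spans include the intron, minus strand). It is shown because reads inside it fit both genes equally well:
ABCB1 and ABCB4: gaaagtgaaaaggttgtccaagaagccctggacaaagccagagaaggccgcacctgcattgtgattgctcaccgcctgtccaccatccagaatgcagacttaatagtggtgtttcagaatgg
At 2618 counts for ABCB1 in GFP replicate 3, ABCB4 had 6.94 CPM there, within the range of the other GFP libraries. At 719 counts for ABCB1 in POU5F1B replicate 3, ABCB4 had 11.6 CPM, above the 2.04 and 1.67 CPM of POU5F1B replicates 1 and 2. The part of the shared sequence in these values was not tested.

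Among lipid and sterol transporters, 7 of 16 were tested. ABCA1, which loads cholesterol and phospholipid onto apolipoprotein A-I, measured 2.52, 1.44 and 0.433 CPM in GFP and 0.314, 0.925 and 1.16 CPM in POU5F1B replicates 1 to 3. These rest on 30, 19 and 5 counts in GFP and on 4, 10 and 14 counts in POU5F1B libraries, with a large counting error. The order of the groups turned between replicates, GFP being higher in replicates 1 and 2 and POU5F1B in replicate 3. It fell by 1.77 on the log2 scale in replicates 1 and 2 (SE 0.54; adjusted p = 0.0263, limma voom), with -0.74 ± 0.76 over all 6 libraries (adjusted p = 0.731, limma voom) and 1.15 in the replicate 3 pair.

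ABCA2 measured 62.0, 55.6 and 55.3 CPM in GFP and 85.3, 59.9 and 93.6 CPM in POU5F1B libraries. The lowest POU5F1B library lay below the highest GFP library, and the log2 fold change was 0.45 ± 0.19 (adjusted p = 0.424, limma voom). ABCA3, the phospholipid transporter of lung lamellar bodies, was 12.03, 8.90 and 49.8 CPM in GFP and 5.50, 5.37 and 29.1 CPM in POU5F1B libraries, lower in POU5F1B at each replicate number and several times higher in replicate 3 of both groups. Its log2 fold change was -0.93 ± 0.23 in replicates 1 and 2 (adjusted p = 0.00890, limma voom), under 2-fold, and -0.84 ± 0.87 over all 6. ABCA4, the retinal retinoid flippase, ABCA5, ABCA7 and ABCG1, which moves cholesterol to HDL, had log2 fold changes from -0.48 to 0.20 and adjusted p of 0.784 or more in limma voom, and none had an adjusted p under 0.05 in replicates 1 and 2 either (-0.54 to 0.38). ABCA5 was at 15.4 CPM in GFP replicate 3 and at 3.32 to 4.72 CPM elsewhere.

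ABCC8 is the sulfonylurea receptor of the beta-cell potassium channel (chromosome 11 from 17414045 to 17498441, GRCh37, minus strand). It measured 3.03, 2.81 and 1.04 CPM in GFP and 0.236, 0.185 and 1.66 CPM in POU5F1B replicates 1 to 3. The POU5F1B libraries of replicates 1 and 2 were the lowest, at or below the level of 3 counts, and that of replicate 3 lay inside the GFP range. The gene fell by 3.56 on the log2 scale in replicates 1 and 2 (SE 0.51; adjusted p = 0.000259, limma voom). Over all 6 the value was -2.16 ± 0.82 (adjusted p = 0.372, limma voom), and the replicate 3 pair differed by 0.60. It also passed the threshold when GFP replicate 3 alone was left out, at -2.63 (adjusted p = 0.0472, limma voom). ABCC8 entered the test through its GFP libraries, as POU5F1B replicates 1 and 2 held 3 and 2 counts. That filter favours a lower POU5F1B level, so the downward calls are description only. ABCC6 measured 3.95, 4.71 and 1.56 CPM in GFP and 3.45, 2.96 and 3.40 CPM in POU5F1B libraries, all POU5F1B values lying inside the GFP range.

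All 6 mitochondrial and lysosomal transporters were tested, and none reached a 2-fold change. ABCD4 was 63.5, 58.9 and 36.5 CPM in GFP and 35.7, 35.2 and 42.6 CPM in POU5F1B libraries. It was lower in POU5F1B replicates 1 and 2 (-0.80 ± 0.11; adjusted p = 0.000212, limma voom) but GFP replicate 3 lay among the POU5F1B values, and all 6 gave -0.46 ± 0.24 (adjusted p = 0.499, limma voom). ABCB8, part of a mitochondrial potassium channel, was lower by 0.54 in replicates 1 and 2 (adjusted p = 0.00632, limma voom) and equal in the replicate 3 pair, at 30.9 CPM in each. ABCB10, a mitochondrial protein needed for haem synthesis, was higher by 0.45 in replicates 1 and 2 (adjusted p = 0.0291, limma voom). Its replicate 3 pair differed by -0.26, with GFP replicate 3 the highest library at 42.0 CPM. All 6 libraries gave 0.23 ± 0.30 for ABCB10 (adjusted p = 0.793, limma voom). ABCB6, a porphyrin transporter, and ABCB9, a lysosomal peptide transporter, gave adjusted p of 0.771 or more in replicates 1 and 2 by limma voom. For ABCB9 24.6% of the exonic length overlaps exons on the opposite strand, mainly of ARL6IP4 and OGFOD2, and the strand setting of the counting is not given in the sources used here.

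The peroxisomal ABCD3 was 48.5, 50.3 and 105 CPM in GFP and 59.9, 75.8 and 55.8 CPM in POU5F1B libraries, with GFP replicate 3 the highest and an estimate near 0 over all 6 (-0.0014 ± 0.312). Of the proteins without membrane domains, ABCE1 was 104, 125 and 355 CPM in GFP and 146, 171 and 137 CPM in POU5F1B libraries, again with GFP replicate 3 on its own. Both ABCD3 and ABCE1 were higher in POU5F1B in replicates 1 and 2, by 0.43 and 0.45 on the log2 scale (adjusted p = 0.0197 and 0.00715, limma voom), and lower in the replicate 3 pair by 0.90 and 1.38. ABCF1, ABCF2 and ABCF3, which act in translation and its control, had log2 fold changes from -0.12 to -0.01 over all 6 libraries.

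The direction of the ABC genes was then set side by side in replicates 1 and 2 and in the replicate 3 pair, where each group has a single library and no test is possible. Of the 30 genes 7 had the same sign in both, beside 47.4% of all tested genes. Of the 20 genes lower in replicates 1 and 2, 4 were also lower in the replicate 3 pair, ABCA3, ABCB1 and ABCF2 among them. Of the 5 that passed the threshold downward this held for ABCB1 alone. The median difference of the 30 genes in the replicate 3 pair was 0.37, beside 0.01 over all tested genes.

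**Figure D5:**
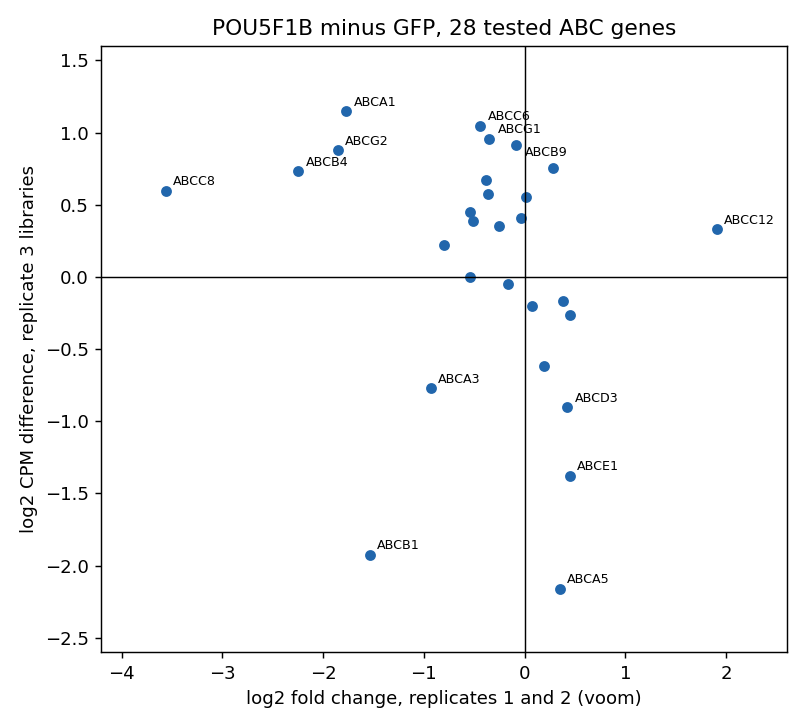
Log2 fold change of POU5F1B over GFP in replicates 1 and 2 (voom, horizontal axis) against the log2 CPM difference of the replicate 3 libraries (vertical axis) for 28 of the 30 tested ABC genes, 1 point per gene. ABCB1 lies low on both axes at -1.53 and -1.92, whereas ABCC8, ABCB4, ABCG2 and ABCA1 lie to the left and above 0.

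Short motifs were read in the 250 nt before the start of the canonical GENCODE transcript of each gene on GRCh37. Annotated exons overlap some of these windows, by all 250 nt for ABCG2 and ABCB6, 194 nt for ABCB1, 173 nt for ABCC8 and 137 nt for ABCB4. The overlap was 25 nt for ABCC12 and 0 nt for ABCA1. The annotated ABCB1 gene reaches 87342639 on chromosome 7, so its window lies inside the gene. The CCAAT box (CCAAT, or ATTGG on the other strand) was found in 10 of the 45 ABC windows and in 34.3% of all 19207 windows, and the GC box (GGGCGG, or CCGCCC) in 24 of 45 and in 59.9%. The octamer ATGCAAAT (or ATTTGCAT), the motif that POU factors such as OCT4 bind, was found in 1 ABC window, of ABCB6, and in 1.47% of all. The TATA box (TATAAA, or TTTATA) was found in 6 of 45 and in 9.03%. Among the genes that passed the threshold in replicates 1 and 2, ABCB1 had 2 CCAAT boxes, ABCB4 6 GC boxes and ABCC8 5 GC boxes. ABCA1 had 3 GC boxes and a TATA box, and the windows of ABCG2 and ABCC12 held none of the 4 motifs. A stretch with 1 of the boxes of ABCB1 (on the opposite strand) and of ABCC8, and the whole window of ABCA1, are shown 5′ to 3′ on the minus strand of each gene, at chr7:87230262-87230291, chr11:17498397-17498426 and chr9:107690437-107690686, with the motifs in capitals:
ABCB1: gtggtgaggctgATTGGctgggcaggaaca
ABCC8: gacggccgggccGGGCGGcggagctgcaag
ABCA1: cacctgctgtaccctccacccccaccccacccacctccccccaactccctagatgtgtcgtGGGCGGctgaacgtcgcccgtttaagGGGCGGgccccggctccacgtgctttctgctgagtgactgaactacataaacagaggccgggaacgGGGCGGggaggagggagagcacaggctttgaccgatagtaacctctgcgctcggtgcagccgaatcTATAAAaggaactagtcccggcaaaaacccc
A match or its absence says only which letters lie in these windows.

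Genes that work with the ABC transporters were taken from lists based on general knowledge, and none passed the threshold with all 6 libraries. Shares of all tested genes to set beside the counts are those given above. With all 6 libraries they were 6.07% higher and 5.82% lower at an unadjusted p under 0.05. Groups did not overlap for 10.2% upward and 9.21% downward. In replicates 1 and 2, 3.21% and 5.15% passed the threshold, and 14.1% and 15.5% had an adjusted p under 0.05 at any fold. The ABC family genes named otherwise are CFTR, the chloride channel, with too few counts to test (10 at most), and TAP1 and TAP2, which carry peptides to MHC class I. TAP1 was 42.0, 41.0 and 37.7 CPM in GFP and 56.3, 57.0 and 45.5 CPM in POU5F1B libraries, and TAP2 was 31.5, 38.6 and 40.2 against 49.4, 51.4 and 50.4 CPM. All POU5F1B libraries were above all GFP libraries for both, at log2 fold changes of 0.39 ± 0.14 and 0.46 ± 0.14 (adjusted p = 0.359 and 0.304, limma voom). In replicates 1 and 2 both were under 2-fold, at 0.44 and 0.51 (adjusted p = 0.0081 and 0.0080, limma voom).

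Of 22 transcription factors that control ABC genes, 18 were tested. At an unadjusted p under 0.05, VDR, the vitamin D receptor, and PPARD were higher (0.79 and 0.50 on the log2 scale), and FOXO3 and HIF1A lower (-0.44 and -0.63). In replicates 1 and 2 PPARG, the adipogenic receptor, alone passed the threshold, upward at 2.62, while the replicate 3 pair differed by -1.38. NR1I2, the xenobiotic receptor PXR that drives ABCB1 in the gut, had at most 2 counts in a library. Of 22 partners 21 were tested, and the unadjusted p was under 0.05 for CAV1 and KCNJ8, both lower. CAV1, the caveolar scaffold, was 69.1, 66.0 and 65.0 CPM in GFP and 17.7, 20.8 and 35.6 CPM in POU5F1B libraries with no overlap (-1.50 ± 0.24; adjusted p = 0.185, limma voom). KCNJ8, a pore subunit that assembles with sulfonylurea receptors, was 12.4, 7.53 and 2.43 CPM in GFP and 0.0785, 0.185 and 3.90 CPM in POU5F1B libraries (-3.71 ± 1.27; adjusted p = 0.346, limma voom), low in the same POU5F1B libraries as ABCC8. CAV1 and KCNJ8 also passed the threshold downward in replicates 1 and 2, at -1.83 and -5.88. KCNJ8 entered the test through its GFP libraries, where it was higher. KCNJ11, another pore subunit in the list, was 2.35, 2.59 and 4.94 CPM in GFP and 3.14, 2.31 and 4.15 CPM in POU5F1B libraries. The log2 fold change of KCNJ11 was 0.02 ± 0.38 (adjusted p = 0.990, limma voom), and 0.12 in replicates 1 and 2.

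Of 17 drug uptake carriers 9 were tested. Of these SLCO3A1, the peptide carrier SLC15A1 and the copper carrier SLC31A1 had an unadjusted p under 0.05, at 1.24, 1.34 and 0.33, and SLCO3A1 and SLC15A1 passed the threshold in replicates 1 and 2, at 1.95 and 1.04. The replicate 3 pair differed by -0.23 for SLCO3A1 and by 1.79 for SLC15A1. Of 34 drug metabolism enzymes 22 were tested, of which GSTO1 and GCLM were higher (0.52 and 0.48) and GSTM4 lower (-0.51) at an unadjusted p under 0.05. In replicates 1 and 2 UGT8 passed the threshold upward at 1.64 and GSTM2 downward at -1.59, while the replicate 3 pair differed by -0.48 and 0.27. The smallest adjusted p in these lists with all 6 libraries was 0.185, by limma voom.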

How the data were processed

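RNA-seq was available as whole-number counts per gene for 6 libraries, which the authors deposited without normalization. The authors mapped reads to hg19 with HISAT2 and counted uniquely mapped reads with featureCounts over genes and transposable elements together; unique mapping loses reads from repeated sequence. The kit was stranded per the labels, but whether counting used strand, and with which annotation release, is not given in the sources used here. Symbols were known for 87.4% of identifiers.

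The filterByExpr function of edgeR 4.0.16 left 14286 genes, which were tested with TMM, voom and limma 3.58.1 in R 4.3.3, p-values being adjusted over all of them by Benjamini and Hochberg and the threshold being an adjusted p under 0.05 and a fold above 2, as in the study's methods. CPM used TMM-scaled totals, log2 CPM a prior count of 2, and a floor of 3 counts corresponded to 0.228 to 0.278 CPM, covering counting error only. Groups and replicate numbers came from the titles. The scripts were tested on simulated data. Alternatives were edgeR's quasi-likelihood test, DESeq2 1.42.0, quality weights, other scalings and filters, a replicate block, replicates 1 and 2 only and leaving out each library.

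The genes named were ABCB1, ABCC2 and ABCG2, members with non-overlapping groups, with an unadjusted p under 0.05, or called in replicates 1 and 2 or with quality weights, and the highest by RPKM in each role. Other members are given by their values to complete the family, and DBF4, DMTF1, ADAM22 and list genes outside the family were named after their values were seen. The members, lists and settings were chosen with earlier results of these data known. Coordinates are 1-based on GRCh37; transcripts, exons and promoter starts were taken from GENCODE models lifted to this build. Values of 2 tested members are not reported here.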

Additional observations from a re-analysis of the deposited data

How the results depend on the processing

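Over all tested genes, 0 passed the threshold with limma voom (1698 at an unadjusted p under 0.05) and 0 with edgeR, 232 did with DESeq2, 1077 with quality weights, 4 without a filter, 1194 with replicates 1 and 2 only, and 0 to 595 when each library was left out, the highest without GFP replicate 3 (5 without POU5F1B replicate 3). Among the ABC genes 0 passed with edgeR and DESeq2 too, 4 did with quality weights, 6 with replicates 1 and 2 only and 0 to 1 when a library was left out, ABCC8 being called without GFP replicate 3. The median of the 30 genes was -0.30 with replicates 1 and 2 only and -0.12 to -0.05 when a library was left out. Direction turned for ABCC1 with replicates 1 and 2 only (-0.035), for ABCC6 with edgeR (-0.061), DESeq2 (-0.066), quality weights (-0.38) and replicates 1 and 2 only (-0.44), for ABCD3 with quality weights (0.32), total counts (0.029), no filter (0.0092), at least 10 counts in every sample (0.011) and replicates 1 and 2 only (0.43), and for ABCE1 with quality weights (0.33) and replicates 1 and 2 only (0.45). Leaving out a library turned ABCB1 (-3.52 to 0.37), ABCC1 (-0.041 to 0.21), ABCC6 (-0.41 to 0.41), ABCD3 (-0.19 to 0.34) and ABCE1 (-0.48 to 0.39), each without GFP replicate 3, and ABCD3 also without POU5F1B replicate 1 or 3. With the replicate block 1 gene passed over all tested genes and 0 ABC genes. In that fit ABCA2, ABCA3, ABCB1 and ABCC12 had an unadjusted p under 0.05, beside 1697 of all 14286 tested genes. ABCA3 was at -0.85 there (unadjusted p = 0.00693, adjusted p = 0.290, limma voom). Same-numbered libraries correlated in their deviations from the group means at 0.242, 0.0883 and 0.165, and 4 of the 6 libraries, both of replicate 3 among them, correlated best with their own number. All 3 values are above 0, but 1 is under 0.1 and the labels name no shared batch. The numbers were therefore not taken as pairs in the main fit, a choice that these values do not settle. The cause of these changes was not tested. At this depth, genes such as ABCC12 rest on few counts.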
